A study of Homo sapiens with 2 samples.

Results

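The genes described here encode the FOS and JUN subunits of the transcription factor AP-1, namely FOS, FOSB, FOSL1 and FOSL2 and JUN, JUNB and JUND, together with the small MAF protein gene MAFF. They were taken by symbol, as every probe set that the platform annotation assigns to 1 of these names alone, which gave 25 probe sets for 8 of the 18132 genes represented on the arrays. MAFF belongs to another branch of the basic leucine zipper family, so the name FOS and JUN covers 7 of the 8 genes. RNA came from H1299, a human cell line of non-small cell lung carcinoma known to lack p53, collected 48 hours after transient lipid-mediated transfection. The EGR1-transfected cells had received a pcDNA-EGR1 plasmid and the empty-vector cells pcDNA3.1 without an insert. The 2 samples gave 1 Affymetrix array each, hybridised with biotin-labelled cRNA. With 1 array per group there was no replicate error and no test, so every difference below compares these arrays and not the conditions at large. Because the RNA came from whole cultures, a larger change in a fraction of the cells and a smaller change in all of them cannot be told apart.

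AP-1 is a dimer of basic leucine zipper proteins. JUN proteins can pair with each other or with a FOS protein, whereas FOS proteins need a JUN partner to bind DNA well. FOS, FOSB, JUN and JUNB are immediate-early genes, switched on within minutes of growth factor or stress signals and then shut off again as their mRNA is degraded. EGR1, a zinc-finger transcription factor, is induced by the same signals and is itself an immediate-early gene. FOSL1 is often the most persistent FOS protein in carcinoma cells with active RAS and ERK signalling, and JUND is expressed more evenly than JUN or JUNB. The small MAF proteins, MAFF among them, lack a transactivation domain and pair with NRF2 and BACH proteins.

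The 100 bases before the annotated start of 6 members are shown first, because the plasmid encodes a DNA-binding factor and because most of these stretches share 1 short element. Sequences are those of RefSeq (GRCh38.p14), which held a window for 7 of the 8 genes, all but FOSL1, and 2 windows for MAFF, of which the one of the more upstream start is printed. They run 5′ to 3′ on the strand of the gene. Capitals mark matches, on either strand, to TGACGT, part of the cyclic AMP response element (CRE), or to the CRE-like TGACNTCA.
FOS: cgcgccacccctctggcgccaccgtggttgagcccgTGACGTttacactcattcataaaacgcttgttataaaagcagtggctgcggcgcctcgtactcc
FOSB: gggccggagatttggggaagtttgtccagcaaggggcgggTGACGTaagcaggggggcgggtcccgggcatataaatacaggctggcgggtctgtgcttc
FOSL2: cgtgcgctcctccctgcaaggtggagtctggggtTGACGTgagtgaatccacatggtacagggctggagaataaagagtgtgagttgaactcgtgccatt
JUN: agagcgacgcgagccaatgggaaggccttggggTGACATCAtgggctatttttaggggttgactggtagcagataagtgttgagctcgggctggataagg
JUNB: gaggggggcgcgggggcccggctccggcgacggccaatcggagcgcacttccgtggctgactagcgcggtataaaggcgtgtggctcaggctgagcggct
MAFF: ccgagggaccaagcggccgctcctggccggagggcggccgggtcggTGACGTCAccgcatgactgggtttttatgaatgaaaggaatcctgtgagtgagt

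The FOS stretch is chr14:75278728-75278827 on the plus strand and the JUNB stretch chr19:12791386-12791485 on the plus strand. FOSB is shown from chr19:45467896-45467995, FOSL2 from chr2:28392758-28392857 and MAFF from chr22:38201894-38201993, each on the plus strand. JUN is shown from chr1:58784048-58784147 on the minus strand.

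Motifs were counted on both strands over the 250 bases before each start and set beside the same count over all 35116 such windows in the table. TGACGT was found in 5 of the 8 member windows and in 7.10% of all windows. It began 64 bases before the start in FOS, 60 in FOSB and 66 in FOSL2. The 2 other windows with it were those of JUND and MAFF, where it also lies inside the palindrome TGACGTCA. The 8-base form TGACNTCA, which overlaps TGACGT wherever its N is G, was found in 3 member windows (JUN, JUND and MAFF) and in 6.87% of all windows. JUN carried it as TGACATCA, beginning 67 bases before the start. The hexamer TATAAA lay in the windows of FOS, FOSB and JUNB, beginning 33, 30 and 31 bases before the start, and in 10.7% of all windows. The GC box GGGCGG, which can overlap an EGR1 element, was present in 7 of the 8 member windows and 42.6% of all windows. None of the 8 windows held GCGTGGGCG or GCGGGGGCG, the letters used here for the EGR1 element (5.37% of all windows had either), nor the AP-1 element TGANTCA (6.57%) or a CArG box (1.16%). The 8-base form TGACNTCA, as in JUN, was counted apart and not as an AP-1 element. These are letter matches in a short window and say nothing of binding there or further away.

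**Figure D1:**
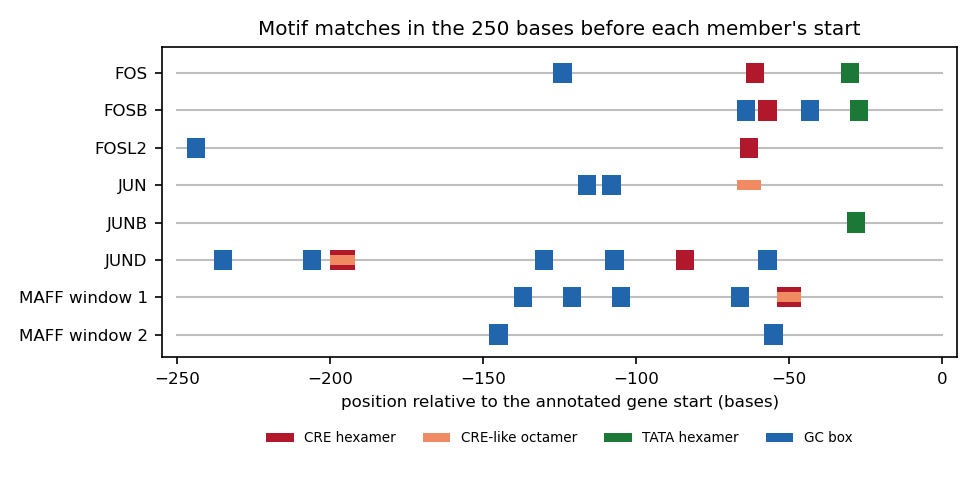
Matches to 4 motifs in the 250 bases before the annotated start of each member, for the 8 RefSeq windows of 7 genes; the horizontal axis is the position in bases relative to the start and each bar spans 1 match. The CRE hexamer TGACGT sits 60 to 66 bases before the start in FOS, FOSB and FOSL2, and the TATA hexamer 30 to 33 bases before it in FOS, FOSB and JUNB.

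The arrays and their controls were examined before the members. Of 6 EGR1 probe sets, 2 were higher in the EGR1-transfected cells, by 3.73 and 2.76 on the log2 scale. The other 4 were lower by amounts between 0.20 and 0.39. The brightest EGR1 probe set by mean level, 11717860_a_at, was among the lower ones, at 10.12 in EGR1-transfected and 10.51 in empty-vector cells. Genes below are read by their brightest probe set, a choice that would read EGR1 itself as lower. A level is called dim here under 5.22, the 40th percentile of all probe sets by mean level. The mesenchymal marker VIM read 13.66 in EGR1-transfected and 13.73 in empty-vector cells. Of 5 epithelial markers, KRT8 (9.97 and 7.97 in the same order), KRT18 (12.47 and 10.70) and KRT19 (5.61 and 5.36) were not dim, with KRT8 and KRT18 higher in EGR1-transfected cells by 2.00 and 1.76, whereas EPCAM (3.75 and 4.14) and CDH1 were dim. Among markers of other cell types, 2 of 5 leukocyte genes were not dim by the mean of both arrays, CD68 (8.36 and 8.24) and CD3E (5.49 and 5.18), whereas the pan-leukocyte gene PTPRC was (2.80 and 2.95). Of 5 endothelial markers 3 were not dim (PECAM1, KDR and VWF, the last the highest at 6.21 on both arrays), and of 5 fibroblast markers 1 (PDGFRB). The 3′ over 5′ difference of the GAPDH control was 0.13 in EGR1-transfected and 0.14 in empty-vector cells, and that of the ACTB control 1.93 and 1.94. All 42 probe sets for the bacterial and phage spike-in RNAs were higher on the EGR1 array, with a median difference of 0.20 and a range from 0.05 to 0.36. Background probes without a genomic target were grouped by the number of G and C bases they hold. They differed by 0 in the class of 10, 0.11 in that of 17 and 0.26 in that of 25. Every class from 14 to 25 was higher on the EGR1 array. The part of these control differences in the members' differences was not tested, but small positive differences of members lie inside their range and are given with that in view. The median difference over all 18132 genes was 0.

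FOS, the founding FOS subunit, was the member with the highest difference. Its brightest probe set, 11734659_a_at, read 10.22 in EGR1-transfected cells and 9.12 in empty-vector cells, a log2 difference of 1.10 or 2.15-fold higher. Probe set 11749291_a_at read 9.59 and 8.50 in the same order (difference 1.09), and 11749852_s_at read 8.68 and 7.72 (0.95). The fourth, 11734658_s_at, read 8.58 in EGR1-transfected and 7.82 in empty-vector cells (0.75). All 4 FOS probe sets therefore exceeded 1.5-fold, 2 of them exceeded 2-fold, and even the smallest difference lay above the highest spike-in difference of 0.36. The mean over the 4 was 0.97 ± 0.16 (SD between probe sets of 1 gene). Of all genes, 42 had a larger difference than FOS. The pooled SD between probe sets of a gene, taken over 7113 genes with 2 or more probe sets at or above the dim level, was 0.15; it covers probe-level error alone and says nothing of error among cultures, transfections or arrays.

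The 3 other FOS-family genes did not share the size of the FOS difference. FOSB, the closest relative of FOS and itself an immediate-early gene, had probe sets that differed by unlike amounts. By its brightest probe set, 11717344_x_at, FOSB read 7.24 in EGR1-transfected cells and 7.01 in empty-vector cells (0.24, 1.18-fold higher). By 11717345_a_at it read 6.37 and 5.82 (0.55, 1.47-fold higher). Both lay above 0, but the first is inside the spike-in range and the second outside it, and neither reached 1.5-fold.

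FOSL2, which encodes the subunit FRA2, was slightly higher in 4 of its 5 probe sets. Its brightest, 11763169_at, read 7.44 in EGR1-transfected cells and 7.18 in empty-vector cells (0.26, 1.20-fold higher). Probe sets 11731599_a_at and 11763170_s_at differed by 0.28 and 0.27, and 11731600_a_at by 0.11. The last, 11763171_at, went the other way, at 6.06 in EGR1-transfected and 6.17 in empty-vector cells (-0.12). Every FOSL2 difference above 0 was inside the spike-in range.

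FOSL1, which encodes FRA1, was the only member whose brightest probe set was lower in EGR1-transfected cells. Probe set 11724478_s_at read 10.11 in EGR1-transfected cells and 10.34 in empty-vector cells, a difference of -0.23 or 1.18-fold lower. All 6 FOSL1 probe sets were below 0, from -0.26 to -0.15, and averaged -0.20 ± 0.04 (SD over probe sets). The probe sets agreed closely and stood on the opposite side of 0 from every spike-in control. The size was nonetheless small: 8.26% of all genes had a lower difference than FOSL1. The gap between FOS and FOSL1, in which a shift common to both genes on an array cancels, was 1.34 by the brightest probe sets and between 0.91 and 1.36 over all pairs of their probe sets.

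**Figure D2:**
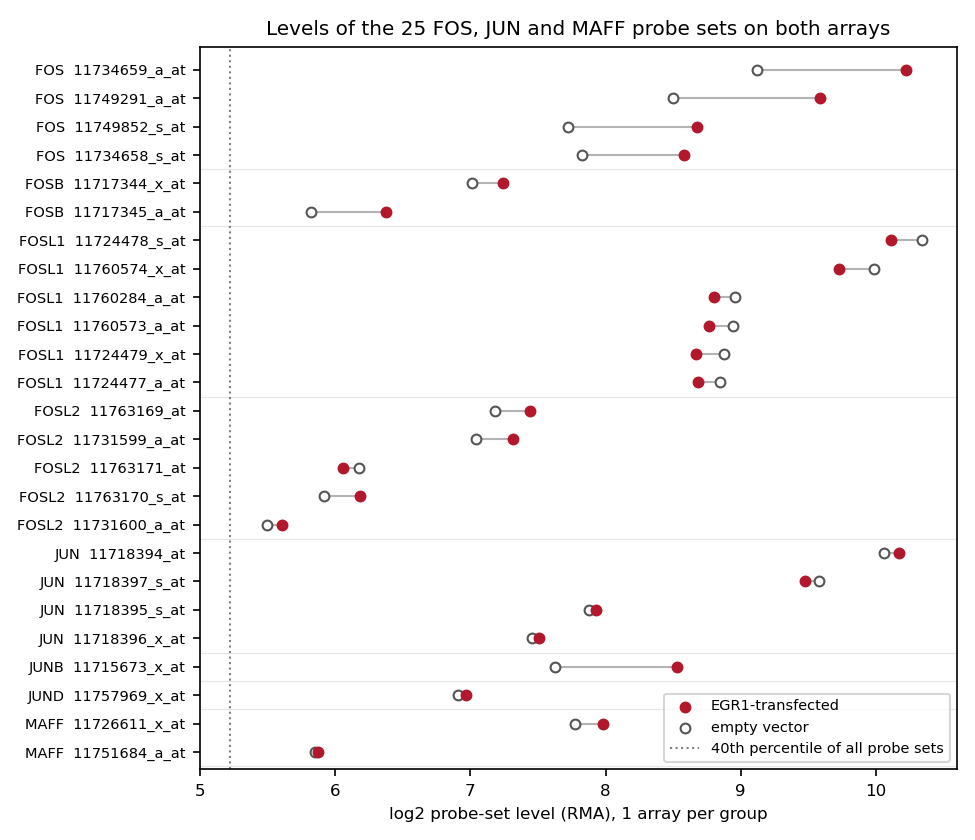
Log2 level of each of the 25 member probe sets, with filled points for EGR1-transfected cells and open points for empty-vector cells (1 array each, no error bars); the dotted line is the dim level of 5.22. The filled points lie to the right of the open ones by 0.75 to 1.10 in FOS and 0.91 in JUNB, and to the left by 0.15 to 0.26 in all 6 FOSL1 probe sets.

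In the JUN family the difference was largest in JUNB, a subunit that can oppose JUN at some target genes. JUNB was read by 1 probe set, 11715673_x_at, at 8.53 in EGR1-transfected cells and 7.62 in empty-vector cells, a difference of 0.91 or 1.87-fold higher. Of all genes, 63 had a larger difference than JUNB. Its difference exceeded every spike-in and background control difference, but its suffix, _x_at, marks a probe set that can bind other transcripts, and no further probe set was there to compare.

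JUN, the prototype JUN subunit and a target of JNK, differed little and in both directions. Its brightest probe set, 11718394_at, read 10.17 in EGR1-transfected cells and 10.06 in empty-vector cells (0.11). Probe set 11718397_s_at read 9.48 and 9.58 (-0.11). The probe sets 11718395_s_at and 11718396_x_at had the same difference of 0.05 to the last digit deposited and may not be independent readings. The mean over the 4 was 0.03 ± 0.09 (SD between probe sets), which leaves JUN without a direction.

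JUND, the more evenly expressed JUN subunit, was read by 1 probe set, 11757969_x_at, at 6.97 in EGR1-transfected cells and 6.91 in empty-vector cells (0.06). This is less than the pooled SD between probe sets. The gap between JUNB and JUN was 0.80 and that between JUNB and JUND 0.84, so of the 3 JUN genes JUNB alone passed 1.5-fold, by a single probe set.

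MAFF was higher in EGR1-transfected cells by one probe set and level by the other. Probe set 11726611_x_at read 7.98 in EGR1-transfected cells and 7.77 in empty-vector cells (0.21, 1.16-fold higher), and 11751684_a_at read 5.88 and 5.85 (0.02). The first lies inside the spike-in range.

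**Figure D3:**
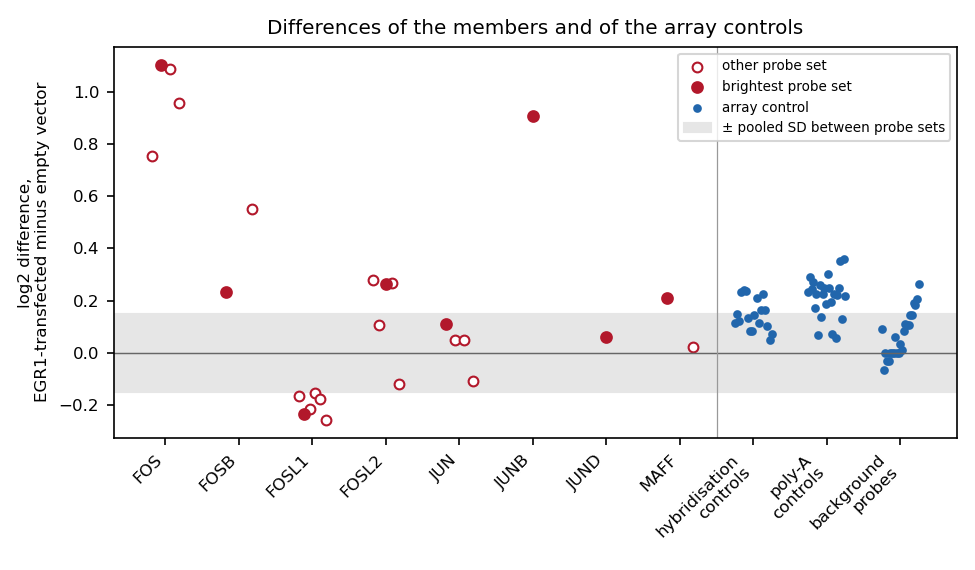
Log2 difference, EGR1-transfected minus empty vector, of every member probe set (filled, the brightest of its gene) and of the array controls (blue; hybridisation controls, poly-A controls, and background probes ordered from few to many G and C bases); the grey band is ± 0.15, the pooled SD between probe sets of a gene. FOS and JUNB stand above all controls, FOSL1 below all spike-in controls, and most other members within the range of the controls.

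Over all members, 1 of 8 genes (FOS) was at or beyond 2-fold higher as read by the brightest probe set, and so were 0.292% of all genes, and 2 of 8 (FOS and JUNB) at or beyond 1.5-fold higher, against 0.86% of all genes. No member was lower by 1.5-fold (0.265% of all genes) or by 2-fold (0.00552%). By sign, 7 of 8 were above 0, against 47.6% of all genes, and 1 was below, against 47.9%. Of those above 0, all but FOS and JUNB lay inside the spike-in range of 0.05 to 0.36. All 42 spike-in controls were also above 0. A difference of either sign at or beyond the pooled SD was seen in 6 of 8 members and in 40.3% of all genes. The median over the 8 was 0.22, against 0 over all genes. No member probe set was dim on either array, so the dim level removed none.

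In order, the members ran FOS (1.10), JUNB (0.91), FOSL2 (0.26), FOSB (0.24), MAFF (0.21), JUN (0.11), JUND (0.06) and FOSL1 (-0.23). The SD of a gap between 2 genes, from the same pooled SD, is 0.21. Only 2 steps in this order were wider than that, the 0.64 between JUNB and FOSL2 and the 0.30 between JUND and FOSL1. The step from FOS to JUNB (0.20) and every step from FOSL2 to JUND were narrower. This SD covers probe-level error alone, so it cannot say whether 2 genes differ between the conditions. By size alone, FOS and JUNB stood highest, 5 members lay near the control probes, and FOSL1 was lowest. Reading FOSB by its other probe set would place it between JUNB and FOSL2, at 0.55.

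The processing setting mattered for the members near a threshold. FOS was at 0.97 with the mean of its probe sets, just under 2-fold, and at 0.90 after the spike-in median of 0.20 was subtracted from every gene. JUN and JUND changed sign under that subtraction, to -0.09 and -0.14, as did much of the array, since it moves the median of all genes to -0.20; relative to that median no member changed. The split of all genes at 1.5-fold was 156 higher and 48 lower as deposited, and 76 higher and 364 lower after the subtraction.

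**Figure D4:**
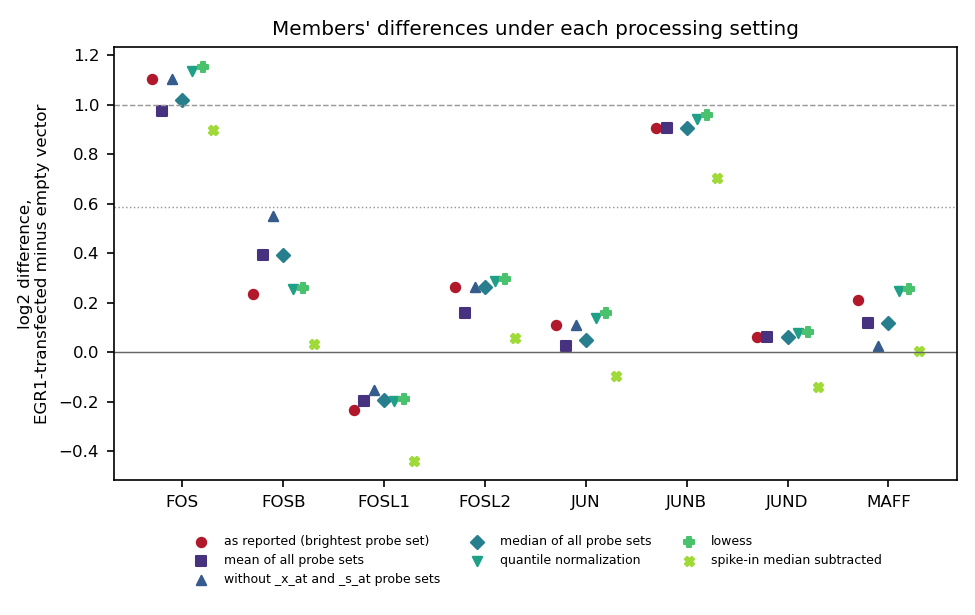
Log2 difference, EGR1-transfected minus empty vector, of each member under the setting reported and 6 alternatives (no error bars; dotted line 1.5-fold, dashed line 2-fold). FOS and JUNB stay above 0.70 and FOSL1 below 0 throughout, while JUN and JUND cross 0 when the spike-in median is subtracted; JUNB and JUND have no point without _x_at and _s_at probe sets.

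The proteins that pair with FOS and JUN, and those that feed into their expression, were read from 6 lists. The lists were chosen with earlier results of these data known. Their counts, set beside the share of all genes, are therefore descriptions and not tests. For each gene the brightest probe set stood for it, and the 4 genes with the largest difference at or above the dim level are named. The counts and medians of the lists also take in dim genes. Besides those given below for the target list, these are BATF, BATF2, NRL, NFE2, BACH2, ELK4, RPS6KA2 and DET1, named outside the rule. The medians ran from -0.06 to 0.14 against 0 over all genes. Those of the partner, promoter-factor, kinase and target lists were below 0 once the spike-in median was subtracted. By construction the median of all genes then moved to -0.20, and relative to it no list median changed.

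Among the ATF, JDP and BATF partners, all 9 listed genes were measured, 6 above and 3 below 0, with a median of 0.14. ATF3, a stress-induced repressor that pairs with JUN proteins, was at 9.19 in EGR1-transfected and 8.42 in empty-vector cells (0.77, 1.71-fold higher), although its 7 probe sets ranged from 0 to 0.77. It was the only 1 of the 9 at or beyond 1.5-fold higher (0.86% of all genes). CREB5, a relative of ATF2, read 5.35 and 5.86 in the same order (-0.50), with 1 of its probe sets at 0. Its level in EGR1-transfected cells was close to the dim level of 5.22. JDP2, a repressor of AP-1, differed by 0.24 and ATF7 by -0.18. The 5 ATF7 probe sets ran from -0.24 to 0.12.

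The MAF, CNC and BACH genes, which include the partners of MAFF, did not differ by 1.5-fold in any of the 10 measured of 12 listed. Of these, 3 were above and 7 below 0, and the median was -0.06. The dim genes NFE2 and BACH2 were among the 3 above 0, and the dim gene NRL was below it. BACH1, a repressor that pairs with small MAF proteins, read 5.37 in EGR1-transfected and 5.62 in empty-vector cells (-0.25). NFE2L3 differed by -0.14, MAF by 0.10 and MAFA by -0.08. The MAF probe sets ran from -0.08 to 0.20, and the other MAFA probe set differed by 0.31. The levels of BACH1, MAF and MAFA were close to the dim level.

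The factors that act at the FOS and JUN promoters were also short of 1.5-fold by the brightest probe set, with 6 of 11 above and 5 below 0 and a median of 0.03. CREB1, which binds the cyclic AMP response element, was at 7.37 in EGR1-transfected and 7.82 in empty-vector cells (-0.46, 1.37-fold lower), and its 7 probe sets ran from -0.46 to -0.08. ELK3, a ternary complex factor of SRF, differed by -0.29. MEF2D and MEF2A, which act at the JUN promoter, differed by 0.27 and 0.16. The probe sets of MEF2D ran from 0.20 to 0.62, past 1.5-fold at the upper end, and those of MEF2A from -0.03 to 0.35. SRF, named outside the rule for its role at FOS, differed by 0.06.

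Of the ERK, JNK and p38 kinases, 13 of 16 listed were measured, 9 above and 4 below 0, with a median of 0.08 and none at 1.5-fold. MAPK10, the JNK3 gene, read 5.52 in EGR1-transfected cells and 5.18 in empty-vector cells (0.34), the second value dim. The other MAPK10 probe set differed by 0. MAPK11 differed by 0.27, MAPK3 (ERK1) by 0.26 and MAPK7 (ERK5) by 0.21, all within the range of the spike-in controls. The 3 MAPK11 probe sets ran from -0.16 to 0.27.

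In the list drawn up for FOS and JUN turnover, 2 of 9 genes were at or beyond 1.5-fold higher (0.86% of all genes). Of these, 1 was at or beyond 2-fold (0.292%). Whether each listed gene acts on FOS or JUN in these cells was not tested. All 9 were measured, 4 above and 5 below 0, with a median of -0.007. TRIB1, a pseudokinase that recruits the ubiquitin ligase COP1, was at 8.89 in EGR1-transfected and 7.81 in empty-vector cells (1.09, 2.12-fold higher), and its other probe set differed by 1.72. ZFP36, which encodes the mRNA-decay protein tristetraprolin and is itself an immediate-early gene, was at 10.71 and 10.05 (0.66, 1.58-fold higher, 1 probe set). Its relatives ZFP36L2 and ZFP36L1 differed by 0.39 and 0.20. The 4 ZFP36L2 probe sets ran from 0.08 to 0.56 and the 6 of ZFP36L1 from -0.05 to 0.38.

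Textbook AP-1 target genes were measured for 26 of 27 listed, with 16 above and 8 below 0 and a median of 0.10. These values take in genes that were dim, named here outside the rule: MMP3, MMP10, MMP13, IL6, CXCL8, SPRR1B and FASLG. At or beyond 2-fold higher were 3 of the 26 (0.292% of all genes), the metalloproteinase inhibitor TIMP1 (12.29 in EGR1-transfected and 10.93 in empty-vector cells, 1.35), MMP9 (6.67 and 5.58, 1.09) and the cytokine LIF (8.52 and 7.46, 1.07). The 3 TIMP1 probe sets ran from 0.11 to 1.43 and the 3 LIF probe sets from 0.39 to 1.07, so both genes were under 2-fold by at least 1 other probe set, and MMP9 had 1 probe set. SPP1, which encodes osteopontin, differed by 0.49 from a dim level of 4.99 in empty-vector cells, and its 6 probe sets ran from 0.48 to 0.81.

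**Figure D5:**
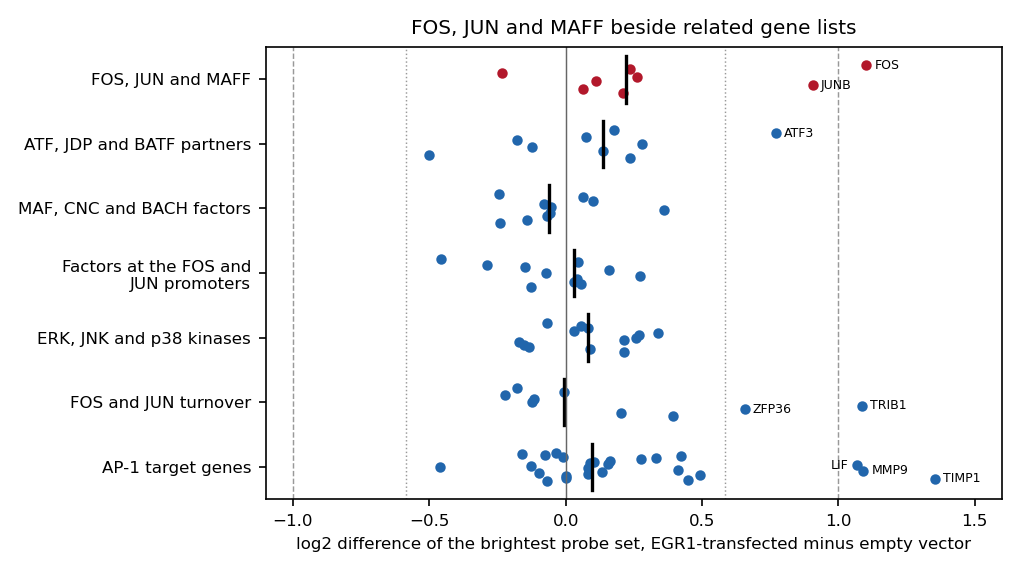
Log2 difference of the brightest probe set, EGR1-transfected minus empty vector, for the 8 members (red) and the measured genes of 6 related lists (blue); black bars are medians, dotted lines 1.5-fold and dashed lines 2-fold, and genes at or beyond 1.5-fold are labelled. Besides FOS and JUNB the labelled genes are ATF3, ZFP36, TRIB1, LIF, MMP9 and TIMP1, and all 8 are higher in EGR1-transfected cells.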

How the data were processed

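The authors deposited log2 levels per probe set. The submitters' processing notes name RMA, which corrects background, brings arrays to one distribution and merges the probes of a set, but its software and settings are not given in the sources here. Of 49293 probe sets that are not array controls, 44988 had 1 gene symbol in the platform annotation, 1832 several and 2473 none here; 44961 were matched to RefSeq by Entrez ID. A gene was read by its brightest probe set (highest mean of both arrays), and its difference was EGR1-transfected minus empty vector, with no further normalization. With 1 array per group no test was made, and the number of arrays limits the precision. The members and lists were chosen with earlier results of these data known. Named were all members, EGR1, and up to 4 genes of each list at or above the dim level with the largest absolute difference; others are said to be outside this rule. Alternatives were the mean or median of a gene's probe sets, no _x_at or _s_at probe sets, quantile normalization, lowess (span 0.3), 2 floors on the level and, chosen after seeing the data, subtraction of the spike-in median. Gene representation and counting were tested on simulated data. Python 3.11.15, pandas 2.3.3 and statsmodels 0.14.6 were used.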

Additional observations from a re-analysis of the deposited data

How the results depend on the processing

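Each member's difference was recomputed under up to 6 alternatives, and counts and medians under 8; a value was taken as moved when it shifted by at least the pooled SD between probe sets (0.15). FOS ranged from 0.90 to 1.15, JUNB from 0.70 to 0.96 and FOSL1 from -0.44 to -0.15, with no change of sign. Subtracting the spike-in median moved every value by 0.20, by construction, to 0.90 for FOS, 0.031 for FOSB, -0.44 for FOSL1, 0.059 for FOSL2, -0.094 for JUN, 0.70 for JUNB, -0.14 for JUND and 0.0057 for MAFF, with a median of 0.019 over the members. It gave list medians of -0.067 (ATF, JDP and BATF), -0.27 (MAF, CNC and BACH), -0.17 (promoter factors), -0.12 (kinases), -0.21 (turnover) and -0.11 (AP-1 targets), against -0.20 over all genes. FOSB was 0.39 with the mean or the median of its 2 probe sets and 0.55 without _x_at and _s_at probe sets, a setting under which MAFF was 0.024 and only 1 member, FOS, stayed past 1.5-fold because JUNB has no other probe set. The count past 2-fold fell to 0 members with the mean of all probe sets and with the spike-in median subtracted. No paired analysis was possible because each group holds 1 array. JUNB and JUND rest on 1 _x_at probe set each.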

Other observations

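IL11, a cytokine of the AP-1 target list named here after its values were seen, had 3 probe sets that disagreed widely, with log2 differences from 0.06 to 1.97; its brightest, which stood for it, differed by 0.10 (5.95 in EGR1-transfected and 5.84 in empty-vector cells). VEGFA, from the same list, differed by 0.45 by its brightest probe set and by 0.13 to 1.33 over 10 probe sets.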
